A study of Mus musculus with 6 samples.

Results

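The mitotic cell division genes examined here are 35 genes whose products carry a cell from mitotic entry to the parting of the daughter cells, and they were chosen by gene symbol. The table of 23930 amplicons held 34 of them, and Ccnb1 was not analysed here. The tissue was the shaft of the humerus, the upper forelimb bone, of E16.5 mouse embryos. The 3 knockout libraries came from Prrx1Cre; Stat3C/C embryos, which the labels call Stat3 KO. The 3 control libraries came from Stat3C/+ embryos, for which no driver is named. The labels call them WT although they carry the C allele, which the knockouts carry on both copies, on 1 copy. Prrx1Cre is active in limb bud mesenchyme, the source of cartilage, bone, tendon and connective tissue of the limb. Blood cells, endothelium and muscle fibres of the shaft come from other lineages and are not targets of this driver. The labels do not say whether each library was 1 embryo or a pool, or whether embryos were littermates, so p-values measure the spread between these libraries, which may be technical.

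Mitosis is driven by the kinase CDK1 with its A- and B-type cyclins, and by the Polo and Aurora kinases. These enzymes reshape the spindle, the kinetochores that tie chromosomes to microtubules, and the cell cortex. A checkpoint holds the cell in metaphase until every kinetochore is attached, and the anaphase promoting complex then destroys cyclin B and securin. Many of these genes are transcribed together late in the cycle, under the MuvB complex with B-MYB and FOXM1, from promoters that carry a CHR element and CCAAT boxes bound by NF-Y. In the growing long bone, columns of proliferating chondrocytes are a main dividing population, beside osteoprogenitors, fibroblasts, myoblasts and blood cells.

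Each library held 9126493 to 13376550 reads, and 1 read was worth 0.0748 to 0.110 RPM (reads scaled to a library total of 1e+06). Each gene is read at 1 short amplicon, so RPM values compare libraries at a gene but do not rank genes. The mitotic genes lay between 6.34 RPM (62 reads) and 452 RPM in any library, so all 34 passed the filter of a mean of at least 1 RPM. The Stat3 amplicon itself had 208, 201 and 170 RPM in the knockout libraries, against 211, 201 and 211 RPM in the control libraries. No source used here places this amplicon inside or outside the deletion, so its level does not check the labels.

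A minority of the mitotic genes fell in Stat3 knockout shafts. With the deposited scaling, 8 of 34 fell and none rose (limma, adjusted p under 0.05), a share of 23.5% lower. Among all 12846 genes tested, 11.0% were called lower and 5.71% higher. Among the 8375 genes whose mean RPM lay within the range of the mitotic genes, 13.7% were called lower and 6.27% higher. The genes that fell were the mitotic kinesins Kif11 and Kif2c, the checkpoint gene Mad2l1, the kinases Cdk1 and Plk1, the Aurora A activator Tpx2, the spindle gene Nusap1 and the transcription factor gene Foxm1. By limma with an unadjusted p under 0.05, 19 of the 34 passed in either direction, beside 31.3% of all genes tested. Of these 18 were lower and 1, Kif20a, was higher.

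The median log2 fold change of the 34 genes, knockout over control, was -0.23, beside -0.06 for all genes tested. The estimate lay below 0 for 30 genes (88.2%), where 59.9% of all genes tested had an estimate below 0. In 15 of the 34 genes every knockout library lay below every control library, a share of 44.1% beside 21.9% of all genes tested. In 1 gene, Kif20a, every knockout library lay above every control library, a share of 2.94% beside 11.9%. Summed over the 34 amplicons, the knockout libraries held 2756, 2759 and 2757 RPM, against 2998, 2982 and 2911 RPM in the control libraries. The knockout sum was 93.0% of the control sum, where the median of all genes tested was itself below 0. Ccna2, Cdk1, Mki67 and Top2a weighed most in the sum, with log2 fold changes of 0.14, -0.24, 0.14 and -0.09. In bulk tissue, fewer dividing cells and less mitotic RNA per dividing cell cannot be told apart. In the same libraries 7 growth plate chondrocyte markers summed to 281 to 316 RPM in knockouts, against 379.7 to 384 RPM in controls, and their part in the mitotic differences was not tested.

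**Figure D1:**
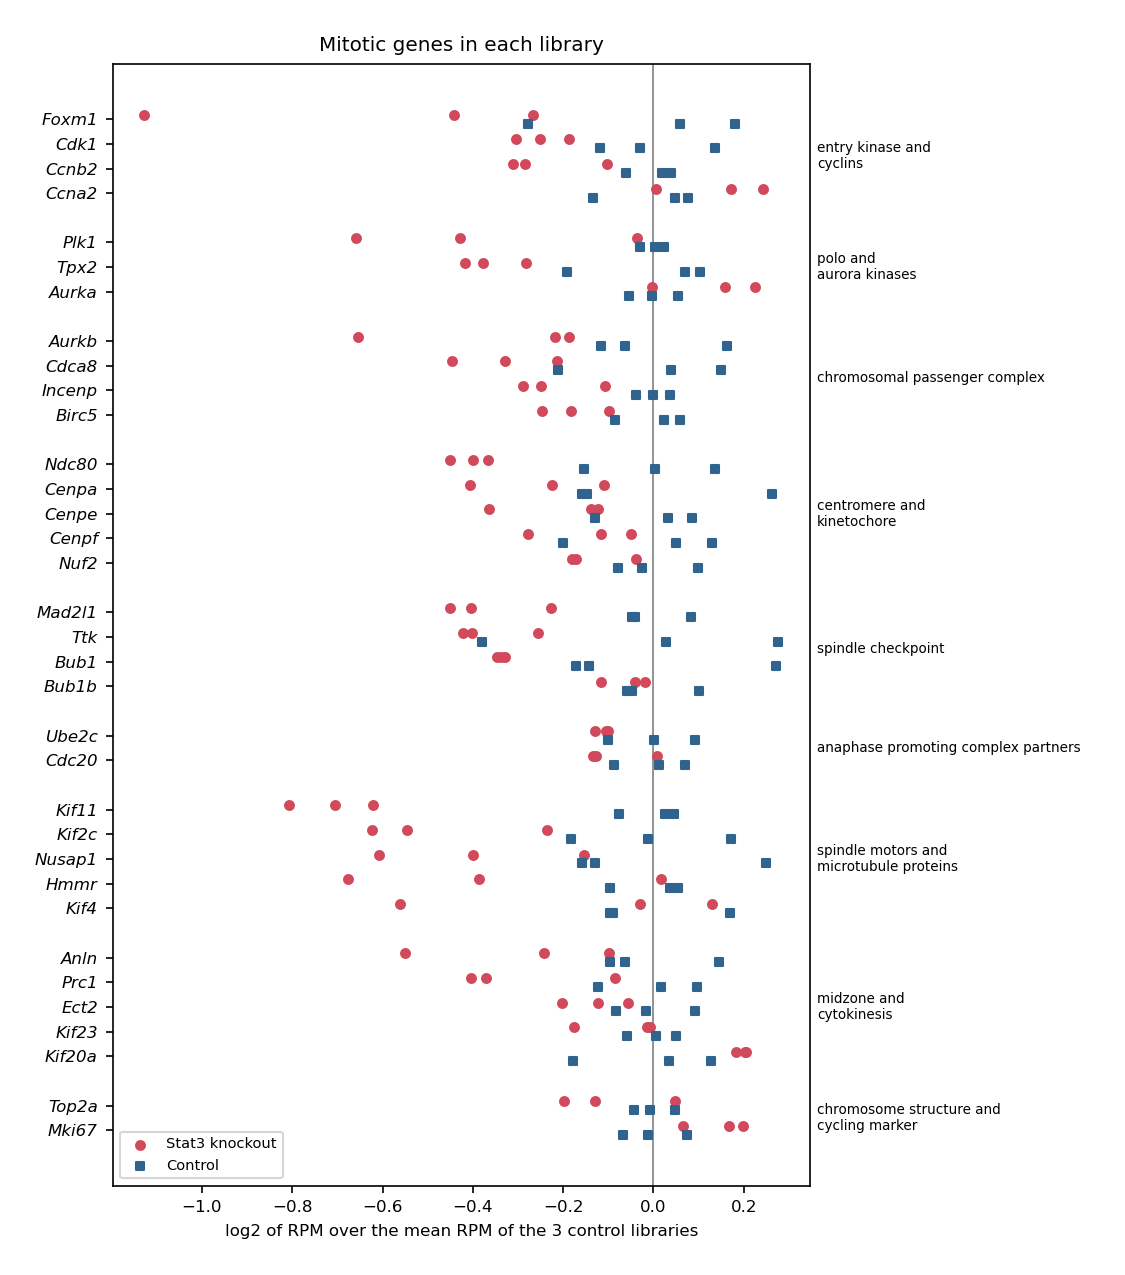
Each row is 1 mitotic gene and each point 1 library, with the log2 of its RPM over the mean of the 3 control libraries on the x axis (knockout, circles; control, squares). The 3 knockout libraries lay left of every control library in 15 rows, Kif11 the farthest, and right of every control library in the row of Kif20a.

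The number of calls depended on how libraries were scaled to each other. Under each of the 5 alternatives that follow, the mitotic share called lower lay nearer to that of all genes than with the deposited scaling. With TMM factors 3 genes fell (Kif11, Kif2c and Mad2l1) and Kif20a rose, where 7.22% of all genes tested were called lower and 8.13% higher. The same 4 calls were made with median-of-ratios factors, where 6.86% of all genes were lower and 8.4% higher. With quantile normalization 4 genes fell, those 3 and Cdk1, and none rose, beside 6.83% of all genes lower and 7.62% higher. With edgeR on the whole reads recovered from the RPM steps, Kif11, Kif2c and Mad2l1 fell and none rose, beside 7.18% lower and 8.19% higher. DESeq2 made the same 3 calls, beside 6.03% lower and 7.77% higher. The median of all genes tested moved to between -0.01 and 0 on the log2 scale under these 5 alternatives, and the median of the mitotic genes to between -0.19 and -0.17. The mitotic median minus the median of all genes was -0.17 with the deposited scaling and -0.18 to -0.17 under these 5.

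Single libraries moved the number too. Without knockout replicate 1, 5 mitotic genes were called lower, where 9.86% of all genes were lower and 4.74% higher. The number was 5 without knockout replicate 2 (6.67% lower and 3.62% higher among all genes) and 5 without knockout replicate 3 (8.48% and 4.84%). It was 2 without control replicate 1 (5.81% and 3.76%) and 2 without control replicate 2 (5.68% and 3.46%). In both fits the share of the 34 called lower was close to that of all genes. Without control replicate 3 it was 9, with Kif20a called higher (10.2% and 5.48%). Among settings of the test, 8 genes were lower with a pseudocount of 0.1 RPM (10.8% and 5.63%), 7 with 10 RPM (10.9% and 5.74%) and 8 with a filter at a mean of 5 RPM (13.2% and 6.36%). With no filter on low values 2 were lower, Kif11 and Mad2l1 (4.24% and 2.55%). The calls of Cdk1, Foxm1, Kif2c, Nusap1, Plk1 and Tpx2 were lost there. With no variance trend the number was 1, Kif11 alone (4.94% and 2.81%), a share of the 34 below that of all genes. With the replicate number as a block 13 were lower (12.7% and 6.51%), though the labels do not say that the numbers pair libraries. Kif11 was among the lower genes under all 17 alternatives.

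**Figure D2:**
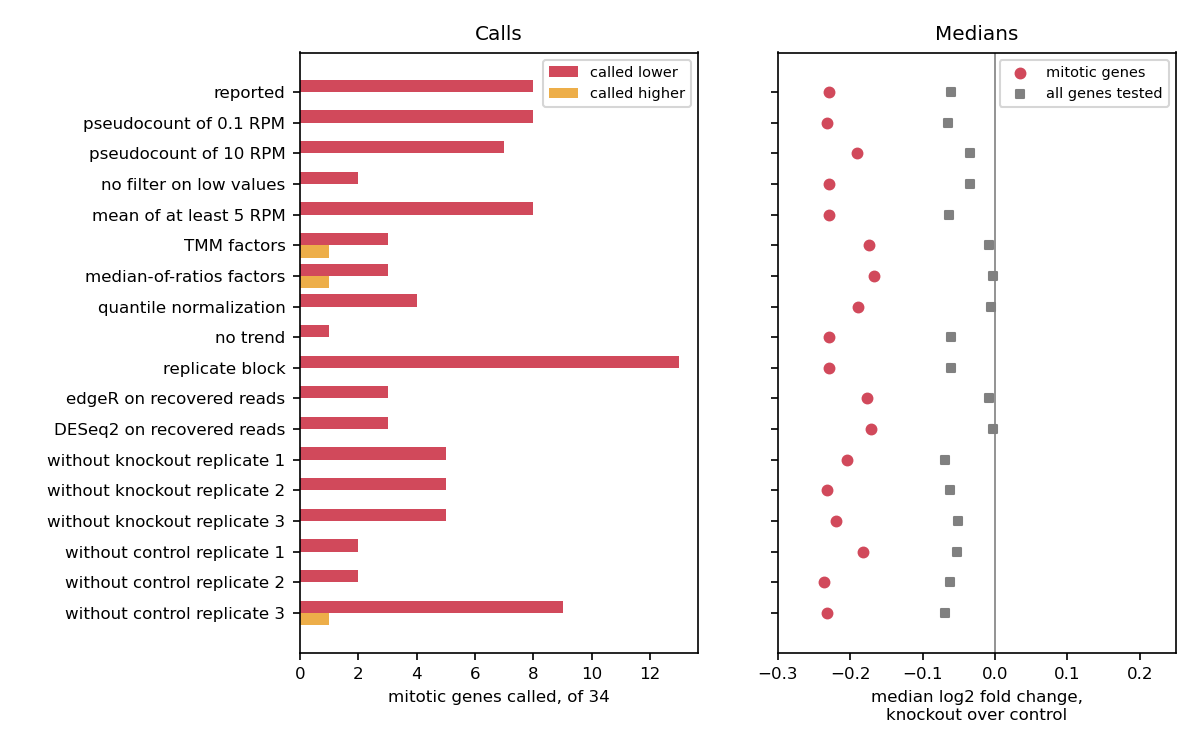
The left bars count the mitotic genes called lower and higher of 34 under each setting of the test, and the right points give the median log2 fold change, knockout over control, of the mitotic genes (circles) and of all genes tested (squares). Lower calls ran from 1 to 13, and the mitotic median lay below the median of all genes under every setting drawn.

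**Figure D3:**
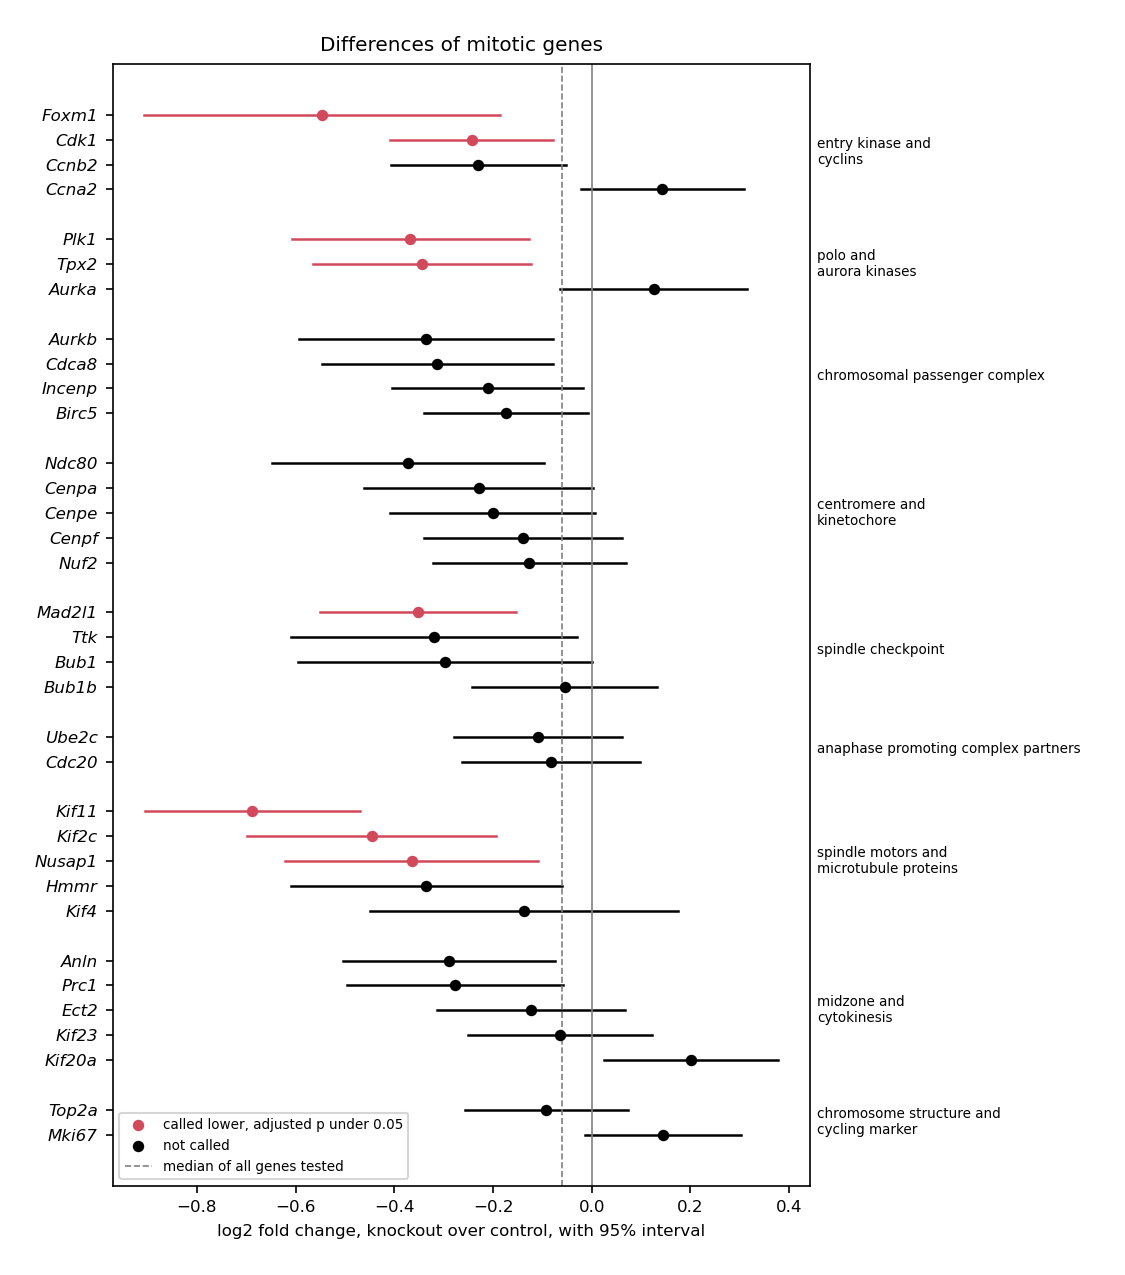
The x axis is the log2 fold change, knockout over control, on log2(RPM + 1), with its 95% interval for each of the 34 genes; the dashed line is the median of all genes tested at -0.06. The 8 genes called lower with the deposited scaling are coloured, and Kif2c, Kif11 and Mad2l1 are those also called with TMM factors, which make Kif20a a call too.

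Promoters of 6 of the 8 genes that fell were in the RefSeq promoter table. They are printed here to show where the letters of the known late-cycle motifs are present or absent. Foxm1 and Tpx2 are named only. Each window runs from 250 bases before to 50 bases after the annotated gene start (RefSeq, GRCm38.p6), written 5′ to 3′ on the strand of the gene. Capitals mark matches to the CHR letters TTTGAA or TTCGAA and to the NF-Y letters CCAAT, on both strands.
Kif11 promoter, chr19:37376132-37376431, plus strand: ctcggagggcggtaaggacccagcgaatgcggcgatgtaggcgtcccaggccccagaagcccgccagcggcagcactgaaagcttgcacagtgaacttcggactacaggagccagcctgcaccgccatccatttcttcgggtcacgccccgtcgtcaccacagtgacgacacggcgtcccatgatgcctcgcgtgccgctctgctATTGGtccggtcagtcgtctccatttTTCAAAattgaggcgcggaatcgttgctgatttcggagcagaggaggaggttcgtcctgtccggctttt
Mad2l1 promoter, chr6:66534971-66535270, plus strand: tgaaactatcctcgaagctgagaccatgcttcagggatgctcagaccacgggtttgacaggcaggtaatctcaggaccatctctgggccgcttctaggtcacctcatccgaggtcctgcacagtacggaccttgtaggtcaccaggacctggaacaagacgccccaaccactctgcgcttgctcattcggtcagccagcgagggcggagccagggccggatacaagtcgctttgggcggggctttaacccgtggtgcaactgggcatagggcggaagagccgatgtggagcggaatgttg
Kif2c promoter, chr4:117178723-117179022, minus strand: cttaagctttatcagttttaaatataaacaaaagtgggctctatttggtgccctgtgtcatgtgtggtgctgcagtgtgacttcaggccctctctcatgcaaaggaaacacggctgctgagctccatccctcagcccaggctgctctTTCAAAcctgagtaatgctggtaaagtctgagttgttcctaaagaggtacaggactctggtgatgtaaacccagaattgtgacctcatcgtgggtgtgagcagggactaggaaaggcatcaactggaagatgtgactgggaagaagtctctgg
Plk1 promoter, chr7:122159185-122159484, plus strand: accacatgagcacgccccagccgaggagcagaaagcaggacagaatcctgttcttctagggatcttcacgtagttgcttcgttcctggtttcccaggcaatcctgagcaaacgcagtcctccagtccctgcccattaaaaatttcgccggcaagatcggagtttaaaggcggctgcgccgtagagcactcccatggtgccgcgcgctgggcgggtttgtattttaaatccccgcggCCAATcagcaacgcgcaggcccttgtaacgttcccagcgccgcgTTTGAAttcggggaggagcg
Cdk1 promoter, chr10:69352863-69353162, minus strand: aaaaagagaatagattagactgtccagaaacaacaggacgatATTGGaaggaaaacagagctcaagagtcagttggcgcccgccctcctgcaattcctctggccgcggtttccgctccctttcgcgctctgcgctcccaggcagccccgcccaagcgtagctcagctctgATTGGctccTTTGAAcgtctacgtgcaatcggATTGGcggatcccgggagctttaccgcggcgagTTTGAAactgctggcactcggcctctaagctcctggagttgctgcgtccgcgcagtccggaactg
Nusap1 promoter, chr2:119618048-119618347, plus strand: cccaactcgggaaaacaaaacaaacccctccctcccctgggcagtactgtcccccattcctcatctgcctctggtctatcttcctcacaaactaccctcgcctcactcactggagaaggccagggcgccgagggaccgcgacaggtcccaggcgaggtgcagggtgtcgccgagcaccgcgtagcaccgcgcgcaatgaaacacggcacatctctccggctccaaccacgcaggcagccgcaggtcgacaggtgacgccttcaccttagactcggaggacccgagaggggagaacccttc

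In the Cdk1 window the CHR letters stood 71 and 15 bases before the start (first base of the match), among 3 CCAAT matches. The Kif11 window held 1 reversed CCAAT 45 bases before the start and 1 reversed CHR 19 bases before it. In the Plk1 window the CCAAT match lay 14 bases before the start and the CHR match 31 bases after it. The Kif2c window held 1 CHR match and no CCAAT, but the start it is set on lies inside the annotated span of the gene and not at its outer end. The Mad2l1 and Nusap1 windows held neither.

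Of the 34 genes, 28 had a promoter window in the table. The CHR letters were in 23 of 28 (82.1%), beside 13.5% of the 9731 windows of genes tested and 19.4% of the windows of all 27025 genes in the table. CCAAT was in 21 of 28 (75%), beside 38% and 37.9%. Both motifs were in 20 of 28 (71.4%), beside 5.63% and 7.7%, and 15 of 28 (53.6%) held CCAAT more than 1 time, beside 14.3% and 12.2%. The letters TTCNNNGAA, the core palindrome of STAT sites, were searched on both strands, where they read the same, and were in 0 of 28 windows, beside 6.69% and 8.47%. A match is a description of letters, and its absence says only that they are not in these 300 bases. CHR and CCAAT are known motifs of late-cycle promoters, so their high shares in a list of mitotic genes are not a finding of these libraries. Of the 23 genes with CHR letters 4 fell, with a median log2 fold change of -0.23. Of the 5 without them 2 fell, with a median of -0.20, where 11.0% of all genes tested were called lower. The 4 include Kif2c, whose window is set on a start inside the gene span. The windows of Aurka and Ect2, also among the 23, lie inside their gene spans too.

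**Figure D4:**
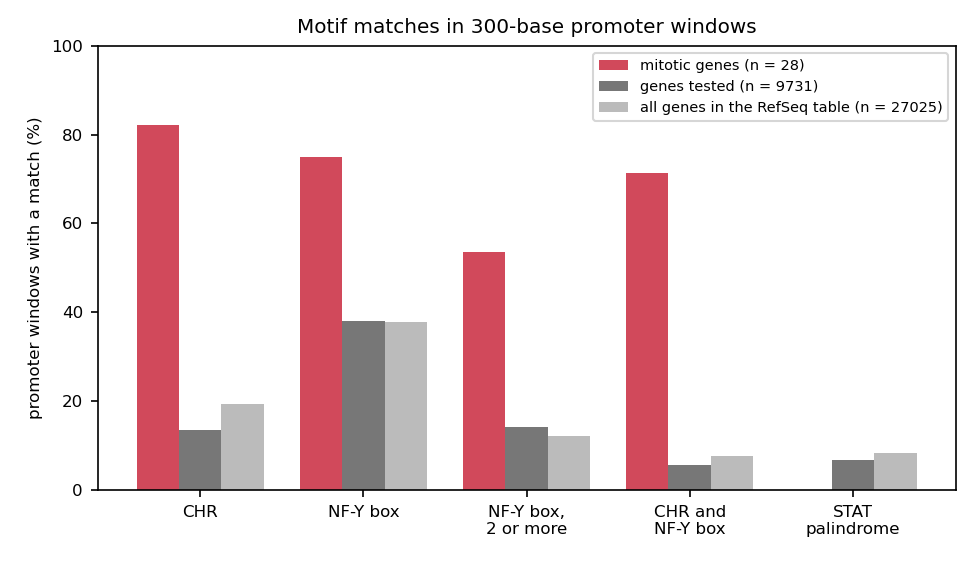
Bars give the percentage of 300-base promoter windows with at least 1 match, for 28 mitotic genes, 9731 genes tested and all 27025 genes of the RefSeq table. CHR letters were in 82.1% of the mitotic windows and in 13.5% of the windows of genes tested, and the STAT palindrome was in 0% of the mitotic windows.

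Among the genes that start mitosis, Cdk1, the master mitotic kinase, had 228, 247 and 237 RPM in the knockout libraries, against 309.8, 276 and 259 RPM in the control libraries. The groups did not overlap. Its log2 fold change was -0.24 ± 0.08 (SE; limma, adjusted p = 0.0382). TMM factors gave an adjusted p of 0.113. The call was lost without any 1 library but control replicate 3. The adjusted p was 0.107, 0.0661 and 0.0666 without knockout replicates 1, 2 and 3 in turn, and 0.193 and 0.0929 without control replicates 1 and 2 in turn. Ccnb2, which encodes a B-type cyclin partner of CDK1, had 90.6, 92.3 and 104.7 RPM in knockouts, against 115, 108 and 114 RPM in controls. The groups did not overlap, but the difference did not pass (limma, adjusted p = 0.0680). Ccna2, the cyclin of S phase and mitotic entry, had 452, 384 and 430.5 RPM in knockouts, against 348, 395 and 403 RPM in controls. Its estimate was 0.14 with a 95% interval of -0.02 to 0.31, and it did not pass.

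Foxm1, the forkhead factor that drives late-cycle transcription, had 11.5, 10.2 and 6.34 RPM in knockout libraries, against 14.4, 15.7 and 11.4 RPM in control libraries. Knockout replicate 1 overlapped control replicate 3, and knockout replicate 3 was the lowest of all 6. The log2 fold change was -0.55 ± 0.17 (SE; limma, adjusted p = 0.0341). Without knockout replicate 3 it was -0.32 with an adjusted p of 0.190, without knockout replicate 2 the adjusted p was 0.0529, and without control replicates 1 and 2 in turn it was 0.107 and 0.164. With TMM factors the adjusted p was 0.0508.

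Of the Polo and Aurora group, Plk1, which acts at centrosomes, kinetochores and the midzone, had 51.0, 66.9 and 43.4 RPM in knockouts, against 67.3, 69.7 and 68.8 RPM in controls. Knockout replicate 2 sat just under the lowest control, and the other knockout libraries lay well below. The log2 fold change was -0.37 ± 0.12 (SE; limma, adjusted p = 0.0325), and leaving out any library but knockout replicate 2 gave an adjusted p of 0.0600 to 0.172. Tpx2, which activates Aurora A on spindle microtubules, had 34.8, 32.5 and 31.7 RPM in knockouts, against 45.4, 44.4 and 37.04 RPM in controls. The groups did not overlap, with a log2 fold change of -0.34 ± 0.11 (SE; limma, adjusted p = 0.0297). The call was lost without knockout replicate 2 (0.0902), knockout replicate 3 (0.0723), control replicate 1 (0.124) or control replicate 2 (0.128), values given as adjusted p. Both calls were lost with TMM factors, at an adjusted p of 0.0668 for Plk1 and 0.0635 for Tpx2. Aurka, the Aurora A kinase gene itself, had 65.8, 77.1 and 73.6 RPM in knockouts, against 65.8, 68.6 and 63.6 RPM in controls, with an interval of -0.06 to 0.32 on the log2 scale.

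The chromosomal passenger complex, which corrects faulty attachments and then marks the division plane, had no member past the threshold. Its kinase Aurkb, scaffold Incenp and targeting subunits Birc5 (survivin) and Cdca8 (borealin) had log2 fold changes of -0.34, -0.21, -0.17 and -0.31. In all 4 genes every knockout library lay below every control library, as in 21.9% of all genes tested. Aurkb had 30.7, 30.02 and 22.2 RPM in knockouts, against 39.1, 33.4 and 32.2 RPM in controls (limma, adjusted p = 0.0659). Birc5 had 142, 149 and 158 RPM in knockouts, against 176, 159 and 171 RPM in controls (adjusted p = 0.138).

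None of the 5 centromere and kinetochore genes passed. Ndc80, the microtubule-binding core of the outer kinetochore, had 10.8, 11.4 and 11.1 RPM in knockouts, against 16.2, 14.7 and 13.2 RPM in controls. Its groups did not overlap, and the log2 fold change of -0.37 gave an adjusted p of 0.0583 (limma). Its binding partner Nuf2 was at -0.13 with overlapping groups. The centromeric histone gene Cenpa and the large coiled-coil genes Cenpe and Cenpf had estimates of -0.23, -0.20 and -0.14, with overlapping groups in each.

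In the spindle checkpoint, Mad2l1, the diffusible inhibitor of anaphase, had 45.8, 47.3 and 53.5 RPM in knockouts, against 66.3, 60.9 and 60.6 RPM in controls. The groups were well separated, with a log2 fold change of -0.35 ± 0.10 (SE; limma, adjusted p = 0.0145), and the gene passed under each of the 3 other scalings. Without knockout replicate 1, knockout replicate 2 or control replicate 1 the adjusted p was 0.0529, 0.0627 and 0.0692. The checkpoint kinases Ttk (MPS1) and Bub1 had log2 fold changes of -0.32 and -0.30 without passing (adjusted p = 0.118 and 0.160). Bub1 was almost the same in every knockout library, at 10.2, 10.2 and 10.3 RPM, against 15.6, 11.7 and 11.5 RPM in controls. Bub1b, which encodes BUBR1, was at -0.06 with an interval of -0.24 to 0.13.

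Neither of the 2 genes that work with the anaphase promoting complex passed. Cdc20, the activator of the anaphase promoting complex that the checkpoint restrains, had a log2 fold change of -0.08 (95% interval -0.26 to 0.10). Ube2c, the ubiquitin-conjugating enzyme of that complex, had 117.1, 115 and 117 RPM in knockouts, against 134, 117.2 and 126 RPM in controls. Its interval was -0.28 to 0.06, and it did not pass.

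Of the spindle motors and microtubule proteins, 3 of 5 fell with the deposited scaling (60%), beside 11.0% of all genes tested. Kif11 (Eg5), the plus-end motor that pushes spindle poles apart, had 25.0, 26.5 and 23.3 RPM in knockouts, against 42.1, 41.5 and 38.7 RPM in controls. All knockout libraries lay far below all controls, and the knockout mean was 61.2% of the control mean. Its log2 fold change was -0.69 ± 0.11 (SE; limma, adjusted p = 0.000111), and it was called lower under all 17 alternatives, with estimates of -0.73 to -0.54 and an adjusted p of at most 0.00772.

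Kif2c (MCAK), which takes microtubules apart at centromeres, had 22.4, 29.3 and 23.6 RPM in knockouts, against 38.8, 34.2 and 30.4 RPM in controls. The groups did not overlap, though knockout replicate 2 came close to control replicate 3, and the log2 fold change was -0.45 ± 0.12 (SE; limma, adjusted p = 0.0149). Without knockout replicate 1, control replicate 1 or control replicate 2 the adjusted p was 0.0631, 0.0921 and 0.0572. With no filter on low values it was 0.0535, and the call was also lost with no variance trend. Nusap1, a microtubule bundler near chromosomes, had 32.7, 38.8 and 28.3 RPM in knockouts, against 39.4, 51.3 and 38.7 RPM in controls. Its groups met at knockout replicate 2, with a log2 fold change of -0.36 ± 0.12 (SE; limma, adjusted p = 0.0461). The adjusted p was 0.0891 with TMM factors and 0.0574 to 0.276 without knockout replicate 1, knockout replicate 3, control replicate 1 or control replicate 2. Hmmr, a spindle assembly protein gene, and the chromokinesin gene Kif4 had estimates of -0.34 and -0.14 and overlapping groups. The estimate of Kif4 was 0.05 without knockout replicate 3.

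At the midzone and the cleavage furrow 4 estimates lay below 0 and 1 above it, and none passed with the deposited scaling. Kif20a (MKLP2), the motor that carries the passenger complex to the midzone, had 157, 155 and 157 RPM in knockouts, against 121, 139.7 and 149 RPM in controls. Every knockout library lay above every control library. The log2 fold change of 0.20 ± 0.09 did not pass with the deposited scaling (SE; limma, adjusted p = 0.107), and it passed with TMM and median-of-ratios factors (0.0491 and 0.0440 as adjusted p) and without control replicate 3 (0.0492). Its close relative Kif23, the motor of centralspindlin, was at -0.06, and Ect2, the activator of RhoA at the cleavage furrow, at -0.12, both with intervals that held 0. The microtubule bundler Prc1 had an estimate of -0.28 and the contractile ring scaffold Anln of -0.29 (adjusted p = 0.0735 and 0.0588), without passing.

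Mki67 and Top2a, both widely used as signs of proliferation, were not called. Mki67, which encodes the Ki-67 coat of mitotic chromosomes, had 249.4, 255 and 232 RPM in knockouts, against 234, 220.3 and 212 RPM in controls, with a log2 fold change of 0.14 and a 95% interval of -0.01 to 0.30. Top2a, which untangles sister chromatids, had 205, 195 and 231 RPM in knockouts, against 217, 231.5 and 222 RPM in controls, with an interval of -0.26 to 0.07. Neither difference passed (limma, adjusted p = 0.201 and 0.464). Over the whole set, the 95% interval lay within 1.5-fold in either direction for 24 of the 34 genes. In the other 10 it reached past 1.5-fold lower, and in none did it reach past 1.5-fold higher.

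A ratio of 2 amplicons of the same library does not change when each library is scaled by a single factor, as with TMM or median-of-ratios factors, but it does with quantile normalization. For 11 pairs of mitotic genes, chosen after the values were seen and mostly partners in 1 complex or step, the groups overlapped in 7, knockouts were lower in 3 and higher in 1. The pairs share genes and are given as a description with no test. The share of pairs of other genes without overlap was not worked out, so the count is not a result about these pairs. Among single genes tested, 21.9% were lower and 11.9% higher without overlap. Kif11 over Mki67 was 0.1002, 0.104 and 0.1004 in the knockout libraries, against 0.1801, 0.188 and 0.182 in the control libraries, the widest gap of the 11. That pair sets the mitotic gene with the lowest estimate against a gene with an estimate above 0. Tpx2 over Aurka was 0.529, 0.422 and 0.431 in knockouts, against 0.691, 0.648 and 0.583 in controls. Kif20a over Plk1 was 3.08, 2.31 and 3.61 in knockouts, against 1.79, 2.003 and 2.16 in controls. Ndc80 over Nuf2, subunits of the same complex, was 0.205, 0.216 and 0.192 in knockouts, against 0.287, 0.231 and 0.226 in controls. Ccnb2 over Cdk1 averaged 0.404 ± 0.0353 in knockouts and 0.401 ± 0.0344 in controls (SD, n = 3 each), with overlapping libraries.

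**Figure D5:**
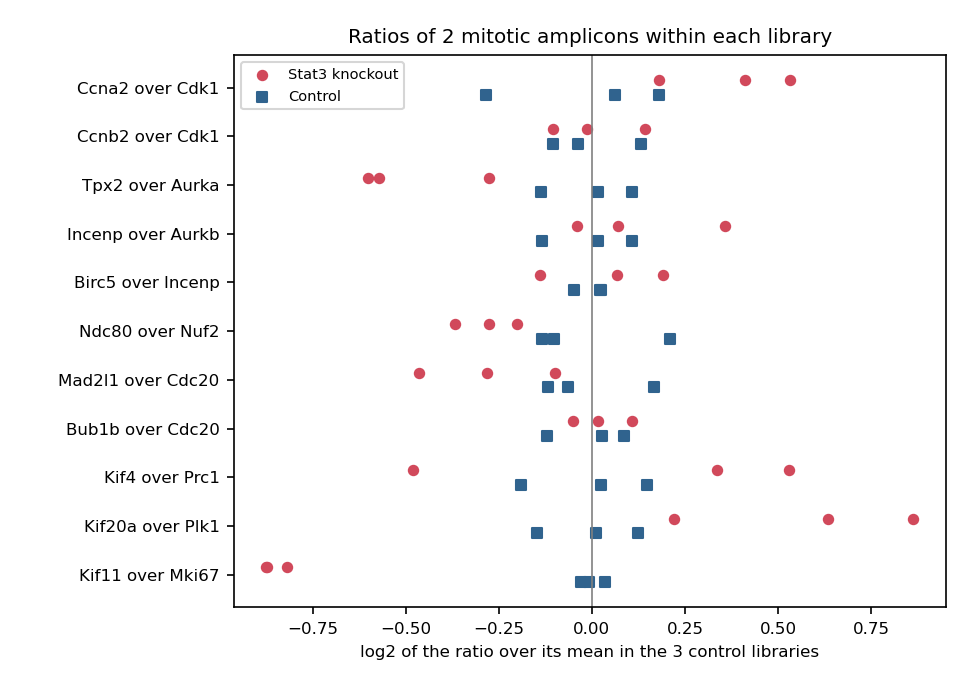
Each row is the ratio of 2 mitotic amplicons within a library, as log2 over its mean in the 3 control libraries (knockout, circles; control, squares). Kif11 over Mki67, Tpx2 over Aurka and Ndc80 over Nuf2 were lower in all 3 knockout libraries than in any control, and Kif20a over Plk1 was higher.

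Within a group no library was the lowest or the highest for all mitotic genes. Knockout replicate 3 held the lowest knockout value for 14 genes and the highest for 11, and knockout replicate 1 the lowest for 13 and the highest for 9. Among controls, replicate 1 held the highest control value for 17 genes, and replicate 3 the lowest for 19. The median coefficient of variation was 7.996% in knockouts and 7.63% in controls, beside 7.92% and 7.64% for the 8375 genes of the same range of levels.

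Further cell cycle lists held 1 to 9 calls each. Of 70 other mitotic genes tested, 8 fell (11.4%) and 1 rose (1.43%), with a median log2 fold change of -0.13. The share lower was close to the 11.0% of all genes tested, of which 5.71% were higher. Hjurp, the chaperone that loads the centromeric histone CENP-A, had 182, 172 and 164 RPM in knockouts, against 272, 273 and 251 RPM in controls. Its groups lay far apart, with a log2 fold change of -0.62 ± 0.08 (SE; limma, adjusted p = 9.95e-06), and it was called lower under all 17 alternatives. Tacc3, a stabiliser of spindle fibres, the condensin II subunit gene Ncapd3 and the CDK-activating phosphatase gene Cdc25b fell by 0.52, 0.47 and 0.42 on the log2 scale. The adjusted p of Cdc25b was 0.0502 without knockout replicate 2, and leaving out no other library changed these calls. Cdca3, a mitotic entry gene, rose, with 164, 167 and 163 RPM in knockouts, against 122.5, 123.1 and 139.6 RPM in controls (log2 fold change 0.36, adjusted p = 0.00409). With TMM factors the list had 5 lower and 2 higher, where 7.22% of all genes were lower and 8.13% higher. With no variance trend it had 4 lower and 0 higher, and Cdca3 had an adjusted p of 0.0539.

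For DNA replication, which precedes mitosis, 6 of 35 genes fell (17.1%) and 3 rose (8.57%), with a median of -0.10, beside 11.0% and 5.71% of all genes. The numbers were 6 and 3 with TMM factors, 4 and 3 with DESeq2, and 2 and 0 with no variance trend. The helicase loading and activation genes Mcm10, Mcm3 and Cdc6 fell by 0.55, 0.47 and 0.44 on the log2 scale, and the polymerase gene Pole fell by 0.38. The primase gene Prim2 (0.36), the thymidylate synthase gene Tyms (0.36) and the helicase gene Mcm7 (0.26) rose. Mcm3 and Mcm7 encode subunits of the same ring. The calls of Mcm10 and Mcm3 held without each library in turn. Cdc6 was lost without knockout replicate 2 or control replicate 2 (adjusted p = 0.0910 and 0.134), and with quantile normalization (0.0750). Pole was lost without knockout replicate 2 or 3, or control replicate 1 or 2 (adjusted p of at least 0.0575), and with median-of-ratios and quantile scaling (0.0536 and 0.0967). Mcm7 was lost without knockout replicate 2 or 3, or control replicate 2 or 3 (0.0520 to 0.0901). Prim2 was lost without knockout replicate 2 or control replicate 3 (0.0628 and 0.0511), and Tyms without knockout replicate 2 or control replicate 2 (0.0571 and 0.0599).

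Of 12 genes of the G1 phase and the start of S phase, 3 fell (25%) and none rose, beside 11.0% and 5.71% of all genes. With DESeq2 1 was lower, and with no variance trend 0. They were the phosphatase gene Cdc25a (-0.37) and the E2F activator genes E2f2 (-0.50) and E2f3 (-0.37), as log2 fold changes. Cdc25a was lost without knockout replicate 2 or control replicate 1 (adjusted p = 0.0679 and 0.0637). E2f2 was lost without knockout replicate 2 or 3, or control replicate 1 or 2 (0.0663 to 0.104). E2f3 was lost without knockout replicate 2, control replicate 2 or control replicate 3 (0.0550 to 0.104), and with median-of-ratios and quantile scaling (0.0536 and 0.0958). The cyclin genes Ccnd1 and Ccne1, named here after their values were seen, had estimates of -0.03 and -0.01. Of 14 brakes of the cycle, 1 fell (7.14%, beside 11.0% of all genes), the retinoblastoma gene Rb1, with 71.0, 71.8 and 79.0 RPM in knockouts, against 96.9, 92.0 and 92.3 RPM in controls (log2 fold change -0.34, limma, adjusted p = 0.00977). With no variance trend the adjusted p of Rb1 was 0.0577. The CDK inhibitor gene Cdkn1a, also named after its value was seen, was at 0.09 and did not pass.

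Among 12 genes of the MuvB, DREAM and NF-Y factors, 2 fell (16.7%) and 1 rose (8.33%), beside 11.0% and 5.71% of all genes. Lin9, a MuvB core subunit, had 11.1, 11.7 and 9.10 RPM in knockouts, against 16.0, 14.1 and 17.7 RPM in controls (log2 fold change -0.54, limma, adjusted p = 0.0111). With no filter on low values its adjusted p was 0.0504. The NF-Y subunit gene Nfya fell by 0.33 on the log2 scale, with an adjusted p of 0.0530 with median-of-ratios factors, 0.0505 with quantile scaling and 0.0530 to 0.0801 without knockout replicate 3, control replicate 1 or control replicate 2. Mybl1, which encodes A-MYB, rose by 0.40, with an adjusted p of 0.0648 without knockout replicate 3 and 0.0539 without control replicate 1. Of 14 anaphase promoting complex genes 3 fell (21.4%) and 1 rose (7.14%), beside 11.0% and 5.71% of all genes. With no variance trend Anapc1 alone was called, lower. Anapc1, Anapc7 and Anapc5 fell by 0.48, 0.35 and 0.28, and Anapc4 rose by 0.36 (log2 scale). Anapc7 was lost without control replicate 1 or 2 (adjusted p = 0.103 and 0.0635) and with quantile scaling (0.0585). Anapc5 was lost without knockout replicate 2, control replicate 1 or control replicate 2 (0.0614 to 0.0847), and with TMM and median-of-ratios factors (0.0529 and 0.0597).

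Of the genes named from these further lists, the calls of Hjurp, Tacc3, Ncapd3, Mcm10, Mcm3, Lin9 and Anapc1 were kept with no variance trend. The others were lost there, from an adjusted p of 0.0505 for Mybl1 to 0.118 for Mcm7. DESeq2 lost E2f2, E2f3, Cdc6, Pole and Nfya (adjusted p of 0.0526 to 0.0698), edgeR lost Anapc5 (0.0589), and with no filter on low values E2f2, Cdc6, Pole and Lin9 were lost (0.0504 to 0.0862).

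Markers of the cells of the shaft also differed between the groups. Of the 7 growth plate chondrocyte markers, whose sums are given above, 5 fell. The 5 osteoblast markers summed to 27027 to 32003 RPM in knockouts, against 30985 to 35203 RPM in controls, and 4 of 5 fell. Nearly all of that sum was Col1a1, at 24756 to 29634 RPM in knockouts, against 26596 to 30725 RPM in controls, which was not called. The 6 neutrophil markers summed to 36.6 to 39.2 RPM in knockouts, against 84.9 to 87.7 RPM in controls, with the precursor genes Mpo and Elane at no more than 0.102 RPM in any library. The 5 macrophage markers summed to 451 to 483 RPM in knockouts, against 353 to 366 RPM in controls, with 3 higher and 1 lower. The widest gap was that of Lyz2, at 222, 234 and 235 RPM in knockouts, against 142, 117 and 142 RPM in controls. Cd68 and Adgre1 were higher too. Csf1r was lower, at 28.7, 27.6 and 32.5 RPM in knockouts, against 41.75, 35.96 and 42.05 RPM in controls. Mrc1 was also lower in every knockout library than in any control, but was not called. The 6 erythroid markers summed to 78.7 to 87.1 RPM in knockouts, against 66.8 to 79.6 RPM in controls, with Alas2 higher. The defining erythroid gene Klf1 was at 0 in all 3 knockout libraries and at 0.172 RPM or less in controls. The 4 muscle progenitor markers summed to 507 to 523 RPM in knockouts, against 552 to 582 RPM in controls, and none passed. That sum was mostly Myog, at 409, 401 and 385 RPM in knockouts, against 464, 465 and 435 RPM in controls. Myf5 lay the other way without overlap, at 49.7, 51.4 and 50.2 RPM in knockouts, against 44.7, 42.9 and 43.2 RPM in controls. Endothelial markers summed to 583 to 620.1 RPM in knockouts, against 568 to 616 RPM in controls, with 1 of 4 lower. That gene was Cdh5, at 165, 178 and 182 RPM in knockouts, against 226, 233 and 192 RPM in controls. Pecam1 had 294, 326 and 281 RPM in knockouts, against 255, 267 and 258 RPM in controls. It was higher without overlap and was not called. The 3 T and B cell markers summed to at most 1.10 RPM in knockouts and 0.410 RPM in controls. The part of these shifts in the mitotic differences was not tested.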

How the data were processed

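RNA from the humerus shaft was extracted with Trizol, turned into cDNA with a SuperScript VILO kit and amplified with an Ion AmpliSeq panel for mouse genes on the Ion Chef, per the labels' protocols. The authors deposited RPM values, reads scaled to a library total of 1e+06, for 23930 amplicons. Which aligner, counter and genome build they used was not given in the sources used here. Among the deposited symbols, 27 had become dates and were read back from the amplicon names. Every RPM value above 0 (100%) was a whole number of reads within 0.1 read, and the recovered whole reads were used for count tests only as alternatives.

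Groups came from the labels. RPM values were analysed as log2(RPM + 1), which understates changes of low genes, for the 12846 genes with a mean of at least 1 RPM. The groups were compared with limma 3.58.1 in R 4.3.3 (empirical Bayes with a trend, two-sided), and p-values were adjusted by Benjamini-Hochberg over every gene tested (threshold 0.05). Intervals are limma's 95% intervals, unadjusted. The model was tested on simulated data. The alternatives were other pseudocounts, filters, scalings and variance models, a replicate block, leaving out each library, edgeR 4.0.16 and DESeq2 1.42.0. Gene levels from reads without molecular identifiers carry counting error that is not that of independent molecules.

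The mitotic genes and the other lists were chosen with earlier results of these data known. Every mitotic gene is named, and of each further list the genes past the threshold, or the 4 with the greatest change in each direction where over 8 passed. Promoters came from RefSeq (GRCm38.p6), the first window listed for each gene. Whether amplicons also read pseudogenes was not tested. Figures used matplotlib 3.10.9.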

Additional observations from a re-analysis of the deposited data

How the results depend on the processing

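With the deposited scaling 733 genes were higher and 1409 lower (with TMM factors 1044 and 928), and among the mitotic genes 0 and 8. The lower counts over all genes and over the mitotic genes were 869 and 2 with no filter on low values, 928 and 3 with TMM factors, 877 and 4 with quantile normalization, 881 and 3 with median-of-ratios factors, 634 and 1 with no trend, 922 and 3 with edgeR, and 775 and 3 with DESeq2. The no-trend fit called 361 genes higher. Mitotic genes called higher were 1 with TMM and 1 with median-of-ratios factors, which also moved the mitotic median to -0.17. Without 1 library, higher genes numbered 444 to 705 and lower genes 729 to 1314, mitotic genes 0 to 1 and 2 to 9, and the mitotic median was -0.24 to -0.18. The estimate of Bub1b turned to 0.00062 with TMM factors, 0.00639 with median-of-ratios factors and 0.00434 with DESeq2, and that of Kif4 ranged from -0.27 to 0.0518 with 1 library left out. Why calls were lost under other scalings was not tested beyond the shift of all genes given above. The pseudocounts of 0.1 and 10 RPM and the filter at 5 RPM kept 8, 7 and 8 lower mitotic genes.

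The labels do not say whether the replicate numbers pair the libraries. Same-numbered libraries had correlations of deviations of 0.0126, -0.0193 and 0.107, beside -0.0983 to 0.0979 for the other pairs. With 3 libraries a group these values cannot settle whether libraries were paired. With the replicate block 13 mitotic genes were lower and none higher, the 8 and Anln, Aurkb, Cdca8, Hmmr and Prc1. The 3 libraries a group limit the precision, and the lowest mitotic value rested on 62 reads.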
